A study of Mus musculus with 11 samples.

Results

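Brain neurons fire and release transmitter through a large set of ion channels, and 118 of the 36666 genes counted in these brains encode their pore-forming and auxiliary subunits. The members were taken by gene symbol: voltage-gated sodium channels (Scn), voltage-gated calcium channels (Cacn), HCN channels (Hcn) and the potassium channel families (Kcn), leaving out Kcnj8, Kcnj10, Kcnj11 and Kcnj13. They fell into 22 families. Polyadenylated RNA was sequenced from 1 cerebral hemisphere per mouse, with the cerebellum removed, from male C57/Bl6 mice of 1 year. The mutator group held 7 mice homozygous for the D257A allele of Polg (D257A/D257A), and the control group held 4 littermates, namely 3 of genotype WT/WT and mouse 237 of genotype WT/D257A. The allele is carried in every cell of the body, so the brain was not changed alone.

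Polg is the polymerase that copies mitochondrial DNA, and the D257A change removes its proofreading, so that mutations build up in mitochondrial DNA with age. Sodium channels carry the rising phase of the action potential, potassium channels end it and set the resting potential, calcium channels couple firing to transmitter release and gene expression, and HCN channels carry a current that opens on hyperpolarization and paces rhythmic firing. Each pore-forming subunit works with auxiliary subunits that set how much channel reaches the membrane and how it gates. Keeping ion gradients against these currents takes a large share of the ATP that brain mitochondria make.

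Each library held between 28249345 and 121182250 counts over genes, and the control medians and mutator medians were 52981946 and 55741011. Levels are given as CPM, the counts of a gene per 1000000 counts of its library after TMM scaling, and differences as log2 fold changes of mutator over control from edgeR with their standard error (SE). The spread behind each test is that between individual mice. The 8 general neuron markers found in the table (Snap25, Syt1, Nefl and others) summed to 5902 to 6416 CPM in controls and 5712 to 6157 CPM in mutators, and 0 of the 8 passed an adjusted p of 0.05 (0 at an unadjusted p under 0.05). Of the 8 general markers, 7 had a negative log2 fold change, with a median of -0.051. Of 7 excitatory neuron markers, 3 were lower at an unadjusted p under 0.05, 1 was higher and 0 passed the adjusted threshold. In this list 6 of the 7 were below 0, with a median of -0.098. Of 9 striatal projection neuron markers tested, 8 were below 0, with a median of -0.13, and Adora2a passed the adjusted threshold (lower). Among 9 GABAergic interneuron markers 5 were below 0, with a median of -0.0017. In tissue of many cell types, fewer cells of a type and less RNA per cell cannot be told apart.

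The cerebral hemisphere expressed most of these channels. Of the 118 genes, 105 had enough counts to be tested, and 32 of these had a control mean of at least 100 CPM, 47 lay between 10 and 100 CPM, 17 between 1 and 10 CPM and 9 under 1 CPM. The 13 that did not pass the filter on low counts were Scn4a, Cacng1, Kcna7, Kcna10, Kcnv2, Kcne1, Kcne3, Kcnj1, Kcnj15, Kcnk7, Kcnk15, Kcnk16 and Kcnk18. All channel counts together made up 0.853% to 0.898% of a control library and 0.811% to 0.862% of a mutator library. These ranges overlapped only where mutator mouse 207 (0.862%) lay above controls 205 and 246 (0.853% and 0.854%).

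One channel gene passed an adjusted p of 0.05: Scn10a, which was higher in mutators. That is 1 of 105, beside 1.24% of all 17983 genes tested. At an unadjusted p under 0.05, 24 channel genes had a lower level in mutators, against a background of 8.58% of all genes, and 6 had a higher level, against a background of 7.18%. The 24 made up 22.9% of the channel genes tested and their log2 fold changes ranged in size from 0.12 to 0.76, with a median of -0.18. Over the 105 genes the median log2 fold change was -0.071 and 70 were below 0, whereas over all genes tested the median was 0.0014 and 49.6% were below 0. The shift was larger in genes rich in G and C and smaller after a correction for GC content, as described after the families.

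**Figure D1:**
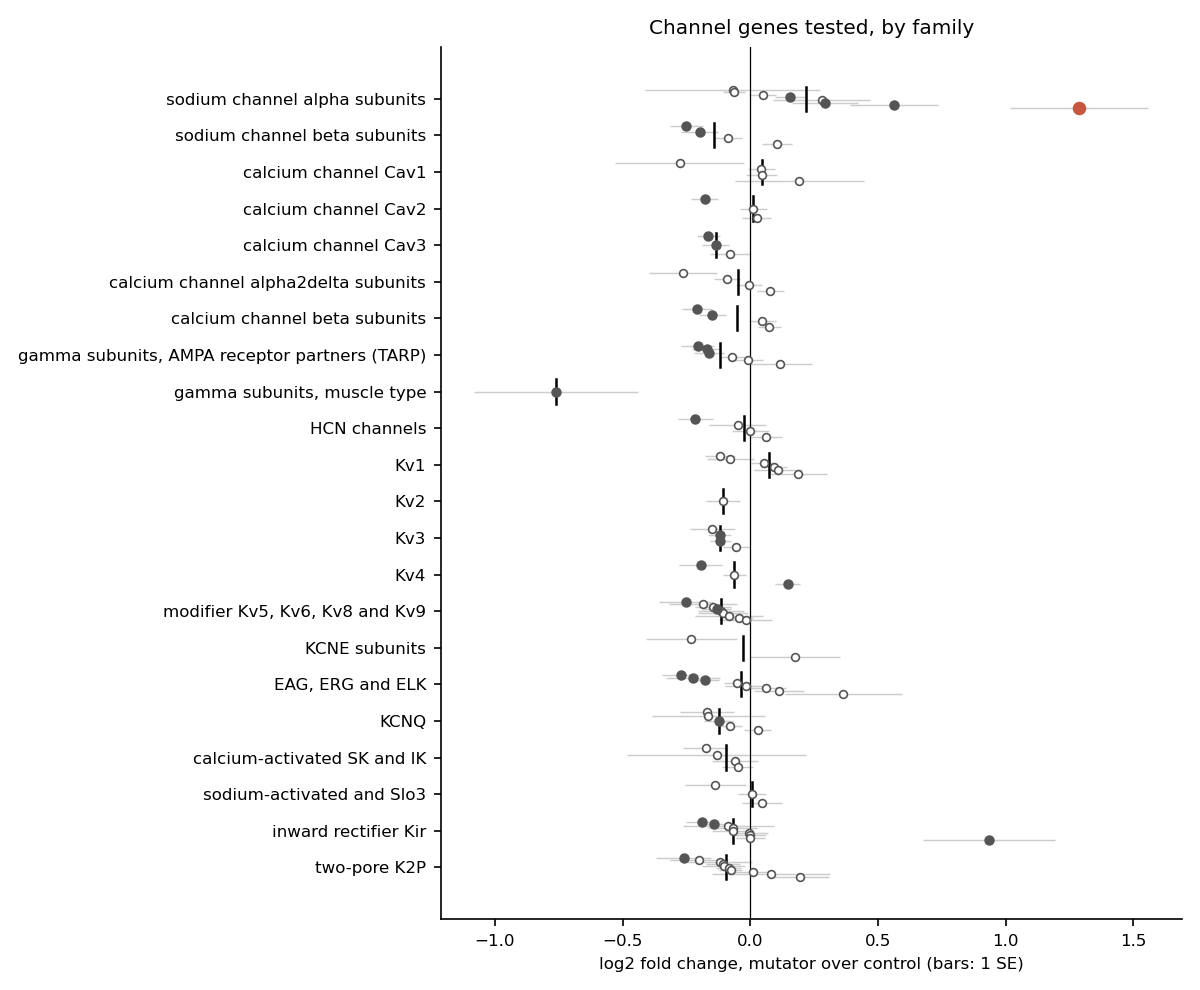
Log2 fold change (mutator over control) of the 105 channel genes tested, 1 point per gene with a bar of 1 SE, by family; black ticks are family medians, filled grey points have an unadjusted p under 0.05 and the red point is the gene with an adjusted p under 0.05. Most points lie within 0.3 of 0, Scn10a (1.29) and Kcnj5 (0.94) lie far to the right and Cacng6 (-0.76) far to the left.

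Among the 8 sodium channel alpha subunits tested, which form the pore, 1 passed the test (higher) and 4, including it, were higher at an unadjusted p under 0.05. After correction for the GC content of the genes, described after the families, 2 of the 7 with a GC value were higher at that threshold. Scn10a encodes Nav1.8, a channel known from pain-sensing neurons of the peripheral ganglia. It stood at 0.671 CPM in control mouse 205, 0.668 in 237, 0.881 in 239 and 0.472 in 246. In the 7 mutators the lowest value was 0.783 CPM, the median 1.97 and the highest 2.21. A single mutator, mouse 217, lay below the highest control, and 6 of 7 lay above every control. The log2 fold change was 1.29 (SE 0.27, adjusted p = 0.024), a 2.44-fold higher level. The raw counts behind it were 13 to 82 in controls and 41 to 183 in mutators. The call was lost without the WT/D257A control (mouse 237, adjusted p = 0.13) or without control mouse 246 (adjusted p = 0.079), with log2 fold changes of 1.28 and 1.19.

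The reads of Scn10a did not cover the whole gene. The gene lies on the minus strand at chr9:119517584-119603478 (NCBIM37, the mm9 assembly) and its exons were counted in 27 bins, numbered by rising coordinate, so that bin 1 holds the 3′ end. In the 10 mice with exon counts (3 WT/WT controls and 7 mutators), 677 reads fell in bins 1 to 8 and 18 in the other 19 bins, although those bins hold 3545 bases of exon against 2826 in the first 8. No mouse had more than 3 reads in any of those 19 bins, and 9 of them had none in any mouse. The share in bins 1 to 8 was 91.3% to 100% in controls and 94.1% to 100% in mutators. In both groups the reads formed a 3′ block. Over the 10 mice, 35 reads fell in bin 8 and 5 in bin 9.

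**Figure D2:**
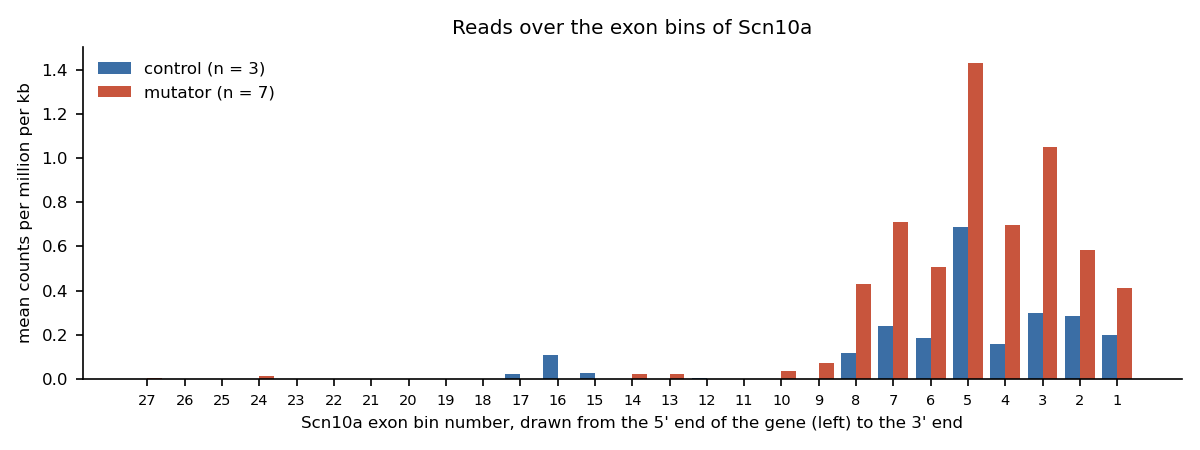
Mean CPM per kb of bin over the 27 exon bins of Scn10a, drawn from the 5′ end of the gene (left) to the 3′ end, for 3 control mice (blue) and 7 mutator mice (red). In each of bins 1 to 8 the mutator mean is above the control mean; the few bars further to the left stand for at most 3 reads per bin in any mouse.

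Scn11a, which like Scn10a lies on chromosome 9, was near the floor at 0.206 ± 0.0392 CPM in controls and had a log2 fold change of -0.069 (SE 0.34). On chromosome 2, Scn9a (Nav1.7) stood at 11.0, 6.95, 10.3 and 5.52 CPM in controls 205, 237, 239 and 246, and at 10.3, 12.6 and 14.7 CPM as the lowest, median and highest mutator. The groups overlapped, with 5 of 7 mutators above every control, and the log2 fold change was 0.56 (SE 0.17, adjusted p = 0.14). Scn7a, a sodium-sensing relative, and Scn3a, a subunit most abundant before birth, had log2 fold changes of 0.29 (adjusted p = 0.27) and 0.16 (adjusted p = 0.19), and of 0.21 and 0.079 after GC correction. The abundant brain subunits had values near 0: Scn1a (23.4 CPM per kb of exon in controls) had a log2 fold change of 0.048 (SE 0.052; -0.015 after GC correction) and Scn8a, at 405 ± 14.4 CPM in controls, one of -0.062 (SE 0.043).

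Kcnj5, like Scn10a and Scn9a, had a higher mean in mutators, and so had markers of the hypothalamus. Kcnj5 encodes Kir3.4, a subunit of the G protein-gated inward rectifier. It stood at 2.12, 0.83, 2.08 and 1.13 CPM in controls 205, 237, 239 and 246, and in mutators at 2.24 (lowest), 3.11 (median) and 4.14 CPM (highest). No mutator overlapped a control, and the log2 fold change was 0.94 (SE 0.26, adjusted p = 0.092). The 7 hypothalamic markers (Hcrt, Pmch, Oxt, Avp, Agrp, Pomc, Trh) summed to 20.5 to 47.2 CPM in controls and 46.7 to 92.8 CPM in mutators. All 7 had a positive log2 fold change with a median of 0.60, 4 of them at an unadjusted p under 0.05, and 0 passed the adjusted threshold. None was at 0 in the table, and Avp, vasopressin, averaged 7.53 CPM in controls and 20.3 CPM in mutators. Controls 237 and 246 were the lowest 2 mice for this sum (31.2 and 20.5 CPM) and for Scn10a, Kcnj5 and Scn9a. For Scn10a, mouse 237 (0.668 CPM) was all but level with control 205 (0.671 CPM). Among mutators the order differed for Scn10a: mouse 207 had the highest Scn10a (2.21 CPM) and the lowest sum (46.7 CPM), and mouse 217 had the lowest Scn10a (0.783 CPM) and a sum of 69.9 CPM. Other lists had positive log2 fold changes too. These were 5 of 5 blood cell and platelet markers (median 0.64), 4 of 4 olfactory bulb markers tested (median 0.45), 5 of 7 of choroid plexus and 4 of 6 of cerebellum. In the blood list Ppbp passed the adjusted threshold (higher, adjusted p = 0.0048), and in the cerebellum list Itpr1 did (lower, adjusted p = 0.0498). Thalamus and hippocampus had 2 of 8 each. The part of dissected hypothalamus or of another region in any of these values was not tested.

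**Figure D3:**
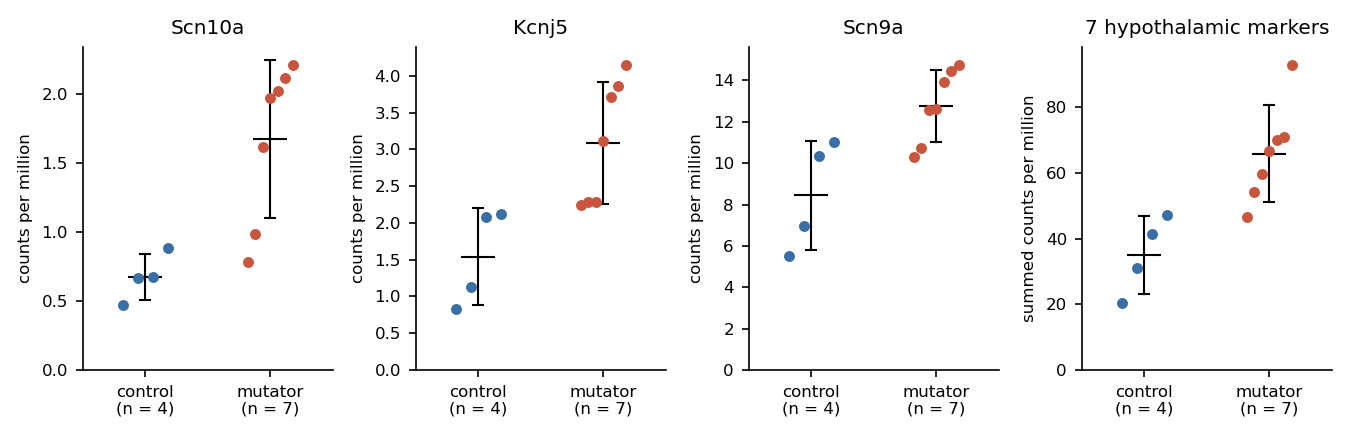
CPM of Scn10a, Kcnj5 and Scn9a and the summed CPM of 7 hypothalamic markers, 1 point per mouse, with the mean and a bar of 1 SD, for 4 control mice (blue) and 7 mutator mice (red). Kcnj5 is the gene of the 3 whose groups do not overlap; for the marker sum, 1 mutator (46.7) lies just below the highest control (47.2).

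The sodium channel beta subunits anchor and modulate the alpha subunits. Of the 4 tested, 0 passed the adjusted threshold and 2 were lower at an unadjusted p under 0.05. Scn4b, the subunit tied to resurgent sodium current, had a log2 fold change of -0.20 (SE 0.071, adjusted p = 0.18), and Scn3b one of 0.10 (SE 0.059).

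Calcium channel alpha1 subunits form the calcium pore. Of the 4 Cav1 (L-type) genes tested, 0 had an unadjusted p under 0.05. Cacna1c and Cacna1d had log2 fold changes of 0.046 (SE 0.061) and 0.044 (SE 0.054), and the scarce Cacna1f and Cacna1s had -0.28 (SE 0.25) and 0.19 (SE 0.25). Of the Cav2 genes, which drive transmitter release, Cacna1a (P/Q-type) had an unadjusted p under 0.05 and its relatives Cacna1b (N-type) and Cacna1e (R-type) did not. Cacna1a stood at 197, 240, 235 and 217 CPM in controls 205, 237, 239 and 246, and at 183, 197 and 208 CPM as the lowest, median and highest mutator. Its groups overlapped and the log2 fold change was -0.18 (SE 0.052, adjusted p = 0.09), whereas Cacna1b had 0.012 (SE 0.053) and Cacna1e, the most abundant per length of the class at 23.9 CPM per kb in controls, 0.025 (SE 0.058). After GC correction Cacna1a, Cacna1b and Cacna1e had -0.10, 0.044 and 0.024. The difference between these genes was not tested.

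All 3 Cav3 (T-type) genes, which carry low-voltage currents in thalamus and cortex, had a negative log2 fold change, 2 of them at an unadjusted p under 0.05; after GC correction 2 of 3 were negative and 0 passed that threshold. Cacna1i stood at 125, 133, 127 and 126 CPM in the 4 controls. Its mutators lay at 106 (lowest), 116 (median) and 120 CPM (highest), so that all 7 were below every control. The log2 fold change was -0.16 (SE 0.045, adjusted p = 0.073), or a fold of 0.893, and after GC correction it was -0.056. Cacna1g, with the highest level per length of the class (13.3 CPM per kb in controls), had a log2 fold change of -0.14 (SE 0.052; -0.046 after GC correction) and Cacna1h one of -0.079 (SE 0.08), which turned to 0.033 after GC correction.

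Among the auxiliary subunits of calcium channels, the beta subunits carry the pore to the membrane. Of the 4, 0 passed the adjusted threshold, and Cacnb3 and Cacnb1 were lower at an unadjusted p under 0.05, against 0 after GC correction. Cacnb3 had control values of 196, 239, 194 and 218 CPM, and mutators at 163 (lowest), 186 (median) and 198 CPM (highest). Of the mutators, 6 of 7 lay below every control, and the log2 fold change was -0.21 (SE 0.059, adjusted p = 0.084; -0.067 after GC correction). The alpha2delta subunits include the binding sites of gabapentin, and 0 of the 4 had an unadjusted p under 0.05. The log2 fold change was -0.0051 (SE 0.05; -0.084 after GC correction) for Cacna2d1 and -0.09 (SE 0.052) for Cacna2d3, the most abundant per length. Cacna2d4 had the lowest p of this class (log2 fold change -0.26, SE 0.13, adjusted p = 0.34).

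The Cacng genes named TARPs carry AMPA-type glutamate receptors to the synapse. Of the 6 tested, 3 (Cacng8, Cacng7 and Cacng3) were lower at an unadjusted p under 0.05 and 0 passed the adjusted threshold. After GC correction 2 were lower at an unadjusted p under 0.05, and Cacng8, Cacng7 and Cacng3 had log2 fold changes of -0.11, -0.078 and -0.15. Cacng8 stood at 23.1 ± 1.54 CPM (SD, n = 4) in controls and 20.1 ± 1.46 CPM (n = 7) in mutators, a log2 fold change of -0.21 (SE 0.064, adjusted p = 0.12). Cacng7, the most abundant per length of the class at 76.5 CPM per kb in controls, had a log2 fold change of -0.17 (SE 0.057, adjusted p = 0.14). Cacng2, stargazin, had one of -0.071 (SE 0.051). Cacng6, of the muscle type, was near the floor of detection, with 0.350 ± 0.137 CPM in controls and a log2 fold change of -0.76 (SE 0.32, adjusted p = 0.25).

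Of the 4 HCN genes, 1 was lower at an unadjusted p under 0.05 and 0 passed the adjusted threshold. Hcn2, the most abundant of them per length (47.5 CPM per kb in controls), had controls at 144, 156, 153 and 153 CPM. Its mutators lay at 108 (lowest), 129 (median) and 147 CPM (highest), and 5 of 7 were below every control. The log2 fold change was -0.21 (SE 0.067, adjusted p = 0.12), and after GC correction it was -0.032. The exons of Hcn2 are 65.4% G and C.

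The Kv1 genes, channels of axons, held no member at an unadjusted p under 0.05 among the 6 tested, and 0 passed the adjusted threshold. After GC correction 3 were higher at an unadjusted p under 0.05, Kcna2, Kcna3 and Kcna5, with log2 fold changes of 0.10, 0.21 and 0.24. Kcna1, the most abundant per length at 30.7 CPM per kb in controls, had 275 ± 11.3 CPM (SD, n = 4) in controls and 286 ± 17.2 CPM (n = 7) in mutators, and Kcna6 had the lowest p of the class with a log2 fold change of -0.12 (SE 0.058, adjusted p = 0.32).

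The Kv3 genes allow fast spiking, as in parvalbumin interneurons, and all 4 had a negative log2 fold change, with 2 at an unadjusted p under 0.05 and 0 past the adjusted threshold. Kcnc2 stood at 165, 169, 176 and 173 CPM in the 4 controls and at 154 (lowest), 158 (median) and 163 CPM (highest) in mutators. No mutator overlapped a control, the log2 fold change was -0.12 (SE 0.039, adjusted p = 0.14) and the fold was 0.922. Its spread among mutators, a coefficient of variation of 2.34%, was the smallest of the 105 genes. Kcnc1 stood at 264.7, 282, 283 and 271 CPM in controls and at 229 (lowest), 254 (median) and 264.6 CPM (highest) in mutators, groups that touched without overlap. Its log2 fold change was -0.12 (SE 0.045, adjusted p = 0.19). Kcnc2 was the one Kv3 gene whose difference grew with GC correction, to -0.17 (SE 0.036, adjusted p = 0.028), past the threshold, while that of Kcnc1 shrank to -0.049. The GABAergic interneuron list, which holds Pvalb, had 2 of 9 markers lower and 2 higher at an unadjusted p under 0.05, and summed to 1149 to 1227 CPM in controls and 1123 to 1313 CPM in mutators.

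These genes are close relatives, and the 120 coding bases where they differ least are shown, since a read from there is told apart by few bases. Kcnc1 lies there at chr7:53653252-53653371 and Kcnc2 at chr10:111709119-111709238, both on the plus strand of NCBIM37, and capitals mark the 10 bases that differ (91.7% identity).
Kcnc1: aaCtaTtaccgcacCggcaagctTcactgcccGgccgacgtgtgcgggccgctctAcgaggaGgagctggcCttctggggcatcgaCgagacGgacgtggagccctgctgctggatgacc
Kcnc2: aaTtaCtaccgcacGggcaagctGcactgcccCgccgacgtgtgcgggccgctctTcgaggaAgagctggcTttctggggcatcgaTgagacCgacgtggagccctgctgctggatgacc
The differing bases are spread along the window.

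Of the 3 Kv4 genes, which carry the A-type current of dendrites, Kcnd3 and Kcnd1 lay on opposite sides. Kcnd3 had 104 ± 7.22 CPM (SD, n = 4) in controls and 115 ± 5.75 CPM (n = 7) in mutators, with a log2 fold change of 0.15 (SE 0.05, adjusted p = 0.15). Kcnd1 had a log2 fold change of -0.19 (SE 0.083, adjusted p = 0.25), and Kcnd2, the most abundant per length, one of -0.062 (SE 0.045; -0.11 after GC correction). All 9 modifier subunits tested, the Kv5, Kv6, Kv8 and Kv9 genes that do not form channels alone, had negative log2 fold changes, with a median of -0.11, and Kcns1 and Kcns2 were lower at an unadjusted p under 0.05. Kcns1 stood at 15.9 ± 1.88 CPM in controls and had a log2 fold change of -0.25 (SE 0.11, adjusted p = 0.25), and Kcnf1, the most abundant of them per length, had one of -0.045 (SE 0.057). After GC correction 6 of the 9 were below 0. Of the KCNE subunits, Kcne2, a gene of the choroid plexus in brain, had a log2 fold change of -0.23 (SE 0.18, adjusted p = 0.57).

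The ether-a-go-go genes (EAG, ERG and ELK) held Kcnh3, an ELK channel of forebrain neurons. Kcnh3 stood at 113, 149, 121.4 and 130 CPM in controls 205, 237, 239 and 246. Mutators lay at 93.4 (lowest), 108 (median) and 116 CPM (highest), and 5 of 7 were below every control. The log2 fold change was -0.27 (SE 0.071, adjusted p = 0.067), or -0.14 after GC correction, and -0.19 without control mouse 237. Kcnh1 had a log2 fold change of -0.18 (SE 0.053, adjusted p = 0.1), little changed by GC correction (-0.15). The ERG genes Kcnh2 and Kcnh7 had log2 fold changes of -0.018 (SE 0.08) and -0.052 (SE 0.05). After GC correction these became 0.12 (SE 0.058, adjusted p = 0.38) and -0.15 (SE 0.049, adjusted p = 0.16), so that Kcnh2 changed sign.

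The KCNQ genes form the M-current that limits repetitive firing. Kcnq5 had the lowest p of the 5, with a log2 fold change of -0.12 (SE 0.057, adjusted p = 0.29), and Kcnq3 had 0.03 (SE 0.053). All 4 calcium-activated SK and IK genes had negative log2 fold changes, from -0.17 for Kcnn1 (SE 0.088, adjusted p = 0.35) to -0.049 for Kcnn2 (SE 0.06), the most abundant per length, and 0 of the 4 had an unadjusted p under 0.05. The sodium-activated channel Kcnt1, at 179 ± 11.2 CPM in controls, had a log2 fold change of 0.0073 (SE 0.055). Kcnu1, the Slo3 gene best known from sperm, had one of -0.14 (SE 0.12, adjusted p = 0.63).

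The inward rectifiers (Kir) hold cells near rest. Of 9 tested, 2 were lower at an unadjusted p under 0.05 (0 after GC correction), Kcnj5 was higher and 0 passed the adjusted threshold. Kcnj4, the most abundant per length at 47.5 CPM per kb in controls, had 102 ± 7.62 CPM (SD, n = 4) in controls and 89.3 ± 8.04 CPM (n = 7) in mutators, with a log2 fold change of -0.19 (SE 0.063, adjusted p = 0.14). Kcnj9 (Kir3.3) had a log2 fold change of -0.14 (SE 0.046, adjusted p = 0.13). Its partner subunits Kcnj3 and Kcnj6 had 0.00077 (SE 0.057) and -0.0011 (SE 0.061). After GC correction Kcnj9, Kcnj3 and Kcnj6 had -0.044, -0.048 and -0.0068. Within the G protein-gated Kir3 group the estimates without that correction, Kcnj5 included, ran from -0.14 to 0.94.

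The two-pore (K2P) genes, which carry background leak, held 10 tested members, 7 of them with a negative log2 fold change (5 after GC correction) and 0 past the adjusted threshold. Kcnk2 (TREK-1) stood at 51.8, 53.2, 52.9 and 52.6 CPM in controls, the smallest spread of any channel gene there (coefficient of variation 1.12%). Its mutators lay at 47.2 (lowest), 49.5 (median) and 51.7 CPM (highest), so the groups did not overlap, by a margin far smaller than the range of the mutators. The log2 fold change was -0.077 (SE 0.044, adjusted p = 0.41). Kcnk13 had the lowest p of the class, with a log2 fold change of -0.26 (SE 0.11, adjusted p = 0.23), and Kcnk1, the most abundant per length, had one of -0.085 (SE 0.05).

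In all, 5 of the 105 channel genes had groups that did not overlap. Cacna1i, Kcnc1, Kcnc2 and Kcnk2 were lower in every mutator than in every control, against a background of 1.42% of all genes tested, and Kcnj5 was higher, against a background of 1.2%. After GC correction 3 channel genes had groups that did not overlap: Kcnc2 and Cacng7, both lower, and Kcnj5, higher. That was 2.91% of the channel genes, beside 2.62% of all genes.

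**Figure D4:**
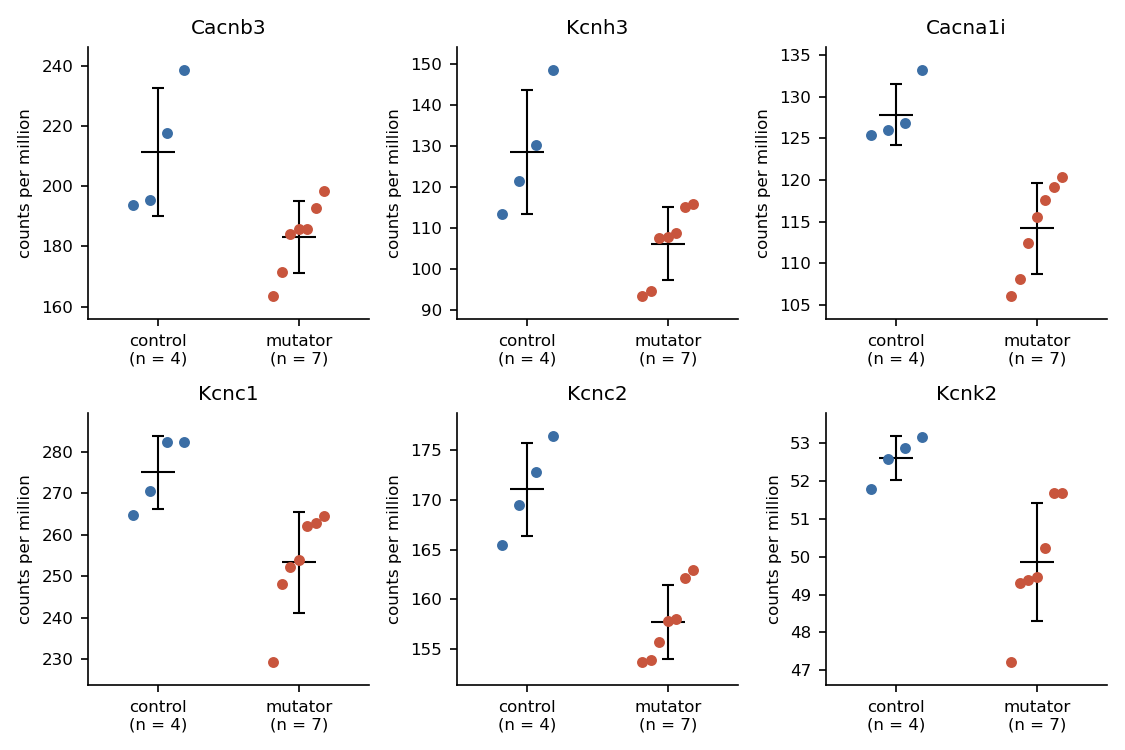
CPM of Cacnb3, Kcnh3, Cacna1i, Kcnc1, Kcnc2 and Kcnk2, 1 point per mouse, with the mean and a bar of 1 SD, for 4 control mice (blue) and 7 mutator mice (red); the axes do not start at 0. Cacna1i, Kcnc1, Kcnc2 and Kcnk2 do not overlap between groups, whereas the mutator values of Cacnb3 (up to 198) and Kcnh3 (up to 116) reach into the control range.

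The difference of a channel gene followed the share of G and C in its exons. The 103 tested members with a single annotated gene were split by GC content into 3 sets. The set with the lowest share (36.4% to 50.7%) had 18 of 35 genes below 0 and a median log2 fold change of -0.0011. The middle set (50.8% to 56.8%) had 21 of 34 below 0 and a median of -0.054. The set with the highest share (57.1% to 70.2%) had 30 of 34 below 0 and a median of -0.14, and it held 14 of the genes lower at an unadjusted p under 0.05. Across the 103 genes, Spearman's rho between GC content and log2 fold change was -0.452, a description over genes that share the same 11 libraries. The same trend ran through all genes, where rho was -0.392 and the median log2 fold change went from 0.089 in the lowest of 10 equal groups by GC content to -0.11 in the highest. Channel genes are rich in G and C, with a median of 53.8% against 50% for all genes tested.

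Single libraries carried this trend to differing degrees. The slope of a library's deviation from the mean of all mice, per 10 percentage points of GC, was -0.021 to 0.16 on the log2 scale in controls and -0.15 to 0.044 in mutators. The highest slope belonged to control mouse 237 and the lowest to mutator mouse 248. In the exon-level counts, the share not assigned to any exon bin, for whatever reason, was 20.6% to 20.8% in 3 controls. It was 20.8% to 23.4% in 7 mutators, and mouse 248 had the highest. With the trend of each library removed, 61 of 103 channel genes (59.2%) were below 0, with a median of -0.026. Over all genes in that fit 47.4% were below 0, with a median of 0.0061. At an unadjusted p under 0.05, 14 channel genes (13.6%) were lower, against a background of 6.44%, and 8 (7.77%) were higher, against a background of 6.85%. In that fit 2 channel genes passed an adjusted p of 0.05, Scn10a (log2 fold change 1.32, adjusted p = 0.028) and Kcnc2, against 0.787% of all genes. The source of the trend was not tested.

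Exons of Kcnh3 and Kcnc2 show the contrast in base composition between a gene whose difference shrank with the correction and one whose difference grew. For each gene the coding exon of 100 to 250 bases nearest to the gene's own GC content is given, with G and C in capitals. The Kcnh3 exon lies on the plus strand at chr15:99058340-99058473 and is 61.2% G and C (61.2% over all its exons), and the Kcnc2 exon lies on the plus strand at chr10:111899021-111899145 and is 48.0% G and C (43.6% over all its exons).
Kcnh3: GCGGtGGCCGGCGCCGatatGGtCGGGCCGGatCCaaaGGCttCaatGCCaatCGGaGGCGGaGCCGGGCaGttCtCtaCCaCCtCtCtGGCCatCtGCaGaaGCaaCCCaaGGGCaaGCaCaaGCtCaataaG
Kcnc2: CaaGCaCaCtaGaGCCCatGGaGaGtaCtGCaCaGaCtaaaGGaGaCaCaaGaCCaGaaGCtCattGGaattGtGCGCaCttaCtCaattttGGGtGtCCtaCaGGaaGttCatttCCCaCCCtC

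**Figure D5:**
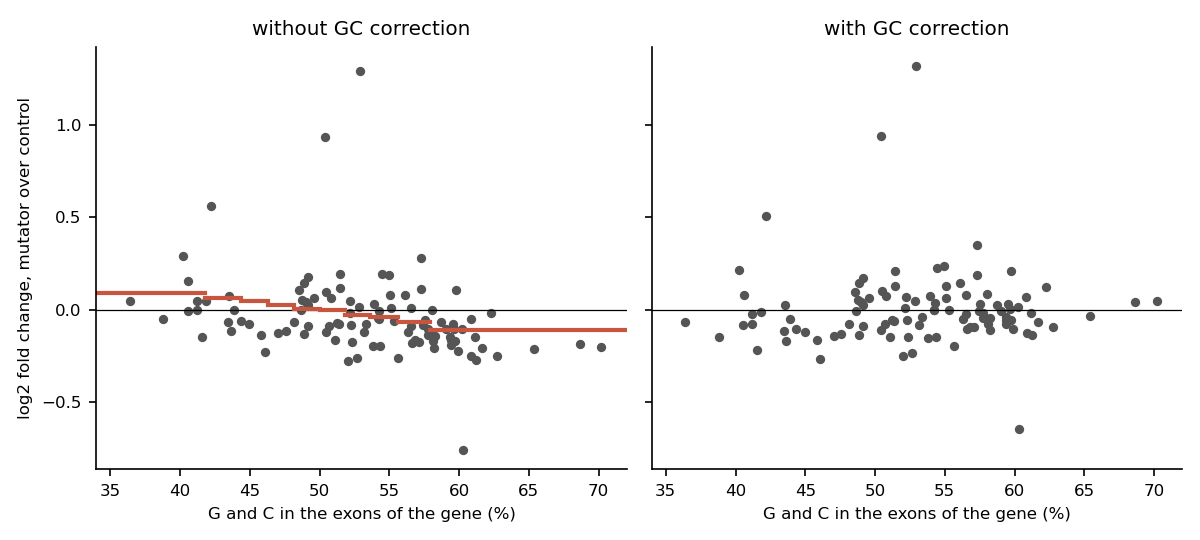
Log2 fold change (mutator over control) against the percentage of G and C in the exons for 103 channel genes (grey points), without correction (left) and with the GC trend of each library removed (right); red steps are the medians of all genes in 10 equal groups by GC content. The steps fall from 0.089 to -0.11, most channel genes at the right of the left panel lie below 0, and Scn10a and Kcnj5 keep their place in both panels.

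The relative use of exons within a channel gene was compared in the 3 WT/WT controls and the 7 mutators. Of 1414 exon bins tested in 93 channel genes, 0 passed an adjusted p of 0.05 with edgeR, beside 0.0237% of all 206930 bins. At an unadjusted p under 0.05 there were 25, or 1.77%, beside 1.90% of all bins, and in 22 of the 25 the bin was used less in mutators. The split by direction over all bins is not given here, so the 22 of 25 has no background. The 2 bins with the lowest p lay side by side near the 3′ end of Cacna1a. The longer, bin 67 (189 coding bases at chr8:87163145-87163333), had a log2 difference in use of -0.60 (adjusted p = 0.18), and a mean of 1.54 ± 0.322 CPM (SD, n = 3) in controls and 0.958 ± 0.327 CPM (n = 7) in mutators. With limma's diffSplice the same bin passed, at an adjusted p of 0.038. With edgeR it also passed without mutator mouse 207 (adjusted p = 0.039) or without mutator mouse 236 (adjusted p = 0.036). It was far from passing without control mouse 239, mutator mouse 240 or mutator mouse 248, with an adjusted p of at least 0.99999 each time. The log2 differences in these fits were -0.46, -0.53 and -0.45. Bin 67 did not pass with any other single mouse left out, so its call depended on single mice. Bins 3 and 4, near the 5′ end of the same gene, came next among its bins, with log2 differences of -0.81 and -0.70. Bin 3 had an adjusted p of 0.83 with all mice in edgeR. It passed without control mouse 205 (log2 difference -1.24, adjusted p = 0.022). Bins 67 and 3 are 78.8% and 79.4% G and C, against 56.6% over the exons of Cacna1a. The sequence of bin 67 on the plus strand is printed with G and C in capitals.
Cacna1a bin 67: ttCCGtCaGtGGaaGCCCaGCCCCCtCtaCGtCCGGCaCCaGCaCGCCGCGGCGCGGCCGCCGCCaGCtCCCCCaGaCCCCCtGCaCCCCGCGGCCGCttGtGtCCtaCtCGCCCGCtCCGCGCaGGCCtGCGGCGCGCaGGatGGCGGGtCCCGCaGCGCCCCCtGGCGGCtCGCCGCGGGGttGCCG
No correction for GC content was made for exon bins.

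Genes that work with these channels were set beside them. The 34 tested were Kv beta subunits, KChIP and DPP subunits of Kv4, the BK channel, the sodium leak channel complex, FGF homologous factors and anchoring proteins. They also held Scn2a1, a sodium channel alpha subunit whose symbol fell outside the rule. Of the 34, 19 had a negative log2 fold change, with a median of -0.011. At an unadjusted p under 0.05, 8 (23.5%) were lower and 3 (8.82%) higher, against backgrounds of 8.58% and 7.18%. After GC correction 22 were below 0, with a median of -0.019. At that threshold 8 were again lower and 3 higher, against backgrounds of 6.44% and 6.85%. Dlg4 was the 1 partner past the adjusted threshold, beside 1.24% of all genes tested. Dlg4 encodes PSD-95, the scaffold that holds receptors and channels at excitatory synapses, and had a log2 fold change of -0.21 (SE 0.052, adjusted p = 0.05 as rounded) and of -0.13 after GC correction, where it was no longer called. Kcnmb4, the neuronal BK beta subunit, had a log2 fold change of -0.25 (SE 0.072, adjusted p = 0.082), and -0.24 after GC correction. Kcnip3 and Cntnap1 followed with -0.22 (adjusted p = 0.09) and -0.18 (adjusted p = 0.095).

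The channel genes were measured tightly. Over the 79 members with at least 10 CPM in controls, the median coefficient of variation was 7.19% among controls and 7.33% among mutators, and 63 and 60 of them were under 10%. The genes of the table that overlap another annotated gene, among them Scn9a, Cacna1a, Kcnd3, Kcna6, Kcnq5 and Kcnk13, may share reads with it, since the strand setting of the counting is not given in the sources used here.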

How the data were processed

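Polyadenylated RNA of 11 mice (7 mutator, 4 control) was sequenced. Per the labels and the methods, the authors aligned reads to mm9 (TopHat2 2.0.6, Bowtie2 2.0.2.0) and deposited raw counts per gene and per exon bin made with HTSeq 0.5.3p9. Their DESeq and exon-usage comparison columns hold fold changes and p-values and were not used. The channel genes, families, partners and marker lists were chosen with earlier results of these data known.

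Counts of all genes were fitted in R 4.3.3 by the quasi-likelihood test of edgeR 4.0.16 (TMM scaling, low genes removed by filterByExpr, no covariate), with Benjamini-Hochberg adjustment over 17983 genes. Exon bins (10 mice; 3 controls) were tested with edgeR's diffSpliceDGE. Overlap of groups used log2 CPM with a prior count of 2. GC content and length came from GENCODE vM1 exons on NCBIM37. Members and partners were named with values if called, if groups did not overlap, or if lowest in p or highest per length in a family; other members and partners are examples chosen after their values were seen. Results of some members are counted but not reported singly here. Scripts were tested on simulated data. Alternatives were DESeq2 1.42.0, limma 3.58.1, sva 3.50.0, RLE and upper-quartile scaling, library totals, other filters, the log2 total as covariate and each mouse left out. A lowess offset for GC, one for GC and length, and a fit without mice 237 and 248 were added after seeing the data.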

Additional observations from a re-analysis of the deposited data

Results flagged for a closer look

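Among 35 channel genes named by rule, 70 groups of mice were examined for a single mouse far from the others, and 5 had one; chance alone gives about 1 in 20 groups. In each case the gap from the mouse to its nearest neighbour, as a share of the range of its group, passed Dixon's 95% critical value. Mutator mouse 207 was the lowest for Kcna6 (67.1 CPM, nearest 78.6, ratio 0.583) and the highest for Kcns1 (17.7 CPM, nearest 13.6, ratio 0.601). Mutator mouse 211 was the highest for Kcnd2 (120 CPM, nearest 112, ratio 0.596). Mutator mouse 248, with the lowest GC slope, was the lowest for Cacng7 (128 CPM, nearest 147, ratio 0.573). Control mouse 237, with the highest GC slope, was the highest for Kcnt1 (195 CPM, nearest 175, ratio 0.845).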

How the results depend on the processing

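Leaving out 1 mouse at a time gave 0 to 6 channel genes past the adjusted threshold, 17 to 32 lower and 4 to 11 higher at an unadjusted p under 0.05, a median log2 fold change of -0.075 to -0.057, 5 to 14 genes whose groups did not overlap, 0 to 1 exon bins and 0 to 1 partners. Over the same fits, all genes past the threshold ranged from 50 of 18304 (without mouse 237, 0 channel genes) to 412 of 18179 (without mouse 205, 6 channel genes). Shares of all genes are not given here for the other counts of those fits. Channel genes past the threshold numbered 6 with DESeq2, 4 with no filter on low counts, 4 with the log2 total as covariate, 2 with GC correction, 2 with GC and length correction and 0 without mice 237 and 248, where Scn10a had 1.23 (adjusted p = 0.2). All genes past the threshold in these fits numbered 615 of 28093, 346 of 28103 and 311 of 17983 for the first 3. For the last 3 they numbered 134 of 17029, 144 of 17029 and 41 of 18067. Scn10a was called in 19 of 22 alternatives. Lower genes at an unadjusted p under 0.05 numbered 14, 15 and 13 with GC correction, GC and length correction and without mice 237 and 248. The median log2 fold change became -0.026 and -0.030 with the first 2 of these. Genes whose groups did not overlap numbered 3 with library totals only, with upper-quartile scaling and with GC correction. Limma's diffSplice called 1 exon bin. Partners past the threshold numbered 2 with DESeq2 and 0 with RLE, upper-quartile scaling, a mean count of at least 10, 1 surrogate variable, GC correction, GC and length correction or without mice 237 and 248. Among the genes reported singly by rule, directions near 0 turned for Cacna1e (-0.036 without mice 237 and 248; -0.0084 to 0.079 with 1 mouse left out), Kcnf1 (0.0004 with GC correction), Kcnt1 (-0.011 with 1 surrogate variable; -0.017 to 0.054 with 1 mouse left out), Scn1a (-0.015 and -0.019 with the 2 GC corrections) and Cacna1c (-0.015 to 0.084 with 1 mouse left out). Of the other members named as examples, Kcnh2 (0.12), Cacna1h (0.033) and Kcnj3 (-0.048) turned with GC correction. The cause of these changes was not tested. No paired analysis was possible because the labels give the mice numbers of their own, shared by no pair across groups. Members under 1 CPM, Scn10a among them, rest on few reads.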
